A study of Mus musculus with 21 samples.

Results

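The genes described here are 10 genes of hyaluronan-binding proteins, out of 35266 genes in the count table: the receptors *Layn*, *Lyve1* and *Cd44*, the lecticans *Acan*, *Ncan*, *Vcan* and *Bcan*, and the link proteins *Hapln1*, *Hapln2* and *Hapln4*. They were chosen by gene symbol, with measured values in view: *Acan* was picked for its higher level in AGRP than in POMC neurons, and *Layn* and *Lyve1* were picked for their rise with fasting. Those 3 patterns are therefore given below as a description with no test. *Hapln3*, the remaining link protein gene, is given beside them. Expression was measured by RNA-Seq in hand-sorted AGRP or POMC neurons from the arcuate nucleus of the hypothalamus of male mice on a C57BL/6J background. AGRP neurons came from NPY-hrGFP mice, in which a fluorescent protein driven by the *Npy* gene marks the cells, and POMC neurons came from Pomc-GFP mice. The 4 groups were AGRP fed (n = 5 mice), AGRP food-deprived (FD, n = 6), POMC fed (n = 5) and POMC FD (n = 5), FD mice having had water but no food for 24 hr, at an age of 46 to 56 days. All mice, fed ones included, were housed alone in a fresh cage for the last day. Each library was made from 44 to 214 pooled cells of a single mouse and held 9822298 to 37663979 counts assigned to genes, so that the floor of 3 counts corresponded to 0.0911 to 0.294 normalized CPM (counts scaled to library size with TMM factors). Floors and the exact intervals of count ratios cover counting error only, since the RNA was amplified without molecular identifiers. Standard errors and intervals of log2(fold-change) were derived from the edgeR fit, are approximate and include the spread between libraries. In these pools a smaller share of cells that use a gene and less RNA per cell cannot be told apart.

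Hyaluronan is a very long sugar polymer that fills the space between cells in the brain. Receptors such as CD44, LYVE1 and layilin hold it at the cell surface, while the lecticans (aggrecan, neurocan, versican and brevican) are chondroitin sulfate proteoglycans whose one end binds hyaluronan. Link proteins of the HAPLN family clamp lecticans to the polymer, and tenascin-R ties their other ends together. In the brain this lattice forms the perineuronal net, a dense coat around some neurons, for which aggrecan is the usual marker. LYVE1 is best known from the endothelium of lymphatic vessels and from perivascular macrophages, and CD44 from immune cells and astrocytes.

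In mm10 coordinates the receptor genes lie apart: *Layn* (ENSMUSG00000060594) on chromosome 9 from 51056780 to 51077094, *Lyve1* (ENSMUSG00000030787) on chromosome 7 from 110850607 to 110862953, and *Cd44* (ENSMUSG00000005087) on chromosome 2 from 102811141 to 102901665, all on the minus strand. Each lectican gene has a link protein gene as a neighbor. *Acan* (ENSMUSG00000030607, chromosome 7, 79053483 to 79115099, plus strand) ends 1928 bases from *Hapln3*. *Ncan* (ENSMUSG00000002341, chromosome 8, 70093085 to 70120873, minus strand) lies 2223 bases from *Hapln4*. *Bcan* (ENSMUSG00000004892, chromosome 3, 87987531 to 88000230, minus strand) lies 21.8 kb from *Hapln2*, and *Vcan* (ENSMUSG00000021614, chromosome 13, 89655312 to 89742509, minus strand) lies 43.5 kb from *Hapln1*. No gene of the table overlapped *Layn*, *Lyve1* or *Acan*, so that their unstranded counts were not shared with an overlapping gene. *Gm4117* lies within *Vcan* on the other strand, and reads of these genes cannot be told apart where their exons overlap.

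The 250 bases before the transcription start are shown for 3 genes because their levels differed most between the groups: *Layn* (minus strand, chr9:51077095-51077344), *Acan* (plus strand, chr7:79052976-79053225) and *Cd44* (minus strand, chr2:102901666-102901915). They are the RefSeq sequences of build GRCm38.p6, written 5′ to 3′ with the start site after the last base, and 8 of the 10 genes matched an entry of that table. Capitals mark the motif match.
Layn: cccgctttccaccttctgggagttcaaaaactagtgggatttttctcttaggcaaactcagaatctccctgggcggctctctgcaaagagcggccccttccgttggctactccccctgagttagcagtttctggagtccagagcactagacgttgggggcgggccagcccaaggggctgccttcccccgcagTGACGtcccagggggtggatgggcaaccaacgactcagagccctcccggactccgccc
Acan: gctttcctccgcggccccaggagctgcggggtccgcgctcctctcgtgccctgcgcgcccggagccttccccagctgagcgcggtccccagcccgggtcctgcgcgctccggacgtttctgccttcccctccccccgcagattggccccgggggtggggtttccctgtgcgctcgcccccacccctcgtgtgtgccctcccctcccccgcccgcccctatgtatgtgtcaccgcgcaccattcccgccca
Cd44: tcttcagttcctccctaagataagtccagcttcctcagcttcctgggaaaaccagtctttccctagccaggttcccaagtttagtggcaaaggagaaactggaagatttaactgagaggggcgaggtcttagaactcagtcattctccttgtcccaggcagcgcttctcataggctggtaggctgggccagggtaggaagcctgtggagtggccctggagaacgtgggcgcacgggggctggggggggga
On both strands 5 motifs were searched: the TGACG motif of the cyclic AMP response element, the AP-1 site TGANTCA, the E-box CACGTG, the FOXO site TGTTTAC and the glucocorticoid response element. A single match was found over the 8 genes, a TGACG motif in *Layn* from 58 to 54 bases before the start. That motif was held by 17.8% of all 32851 promoters of the same length. The *Acan* window was 74.4% G and C, against a median of 52.4% over all promoters.

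Among the receptors, *Layn*, which codes for layilin, was nearly undetected in fed AGRP neurons and abundant in FD AGRP neurons. Counts in the 5 fed AGRP libraries were 1, 4, 1, 0 and 0. In the 6 FD AGRP libraries the normalized CPM ran from 7.78 to 70.4 with a median of 52.5. Every FD library was above every fed library, the lowest being FD replicate 1. Summed over the libraries, 5984 counts in FD against 6 in fed mice correspond to a ratio of 818 (95% exact counting interval 376 to 2230), and the fitted log2(fold-change) was 9.43 (standard error 0.88). The gap was also present in libraries that shared the same spike-in amount: in the set labelled with 10 μl of spike-in, the mean was 49.9 normalized CPM in 2 FD libraries and 0.140 in 2 fed libraries. That amount stands in the labels but is not among those of the study's methods, which bears on all values by spike-in set and by spike-in scaling below.

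POMC neurons had *Layn* in both states. The 5 fed POMC libraries held 2.71, 8.14, 13.8, 7.37 and 7.39 normalized CPM, and the 5 FD POMC libraries held 4.15, 11.9, 1.86, 19.3 and 21.4. These ranges overlapped, and the change with food deprivation was 0.57 on the log2 scale (standard error 0.57, 95% interval −0.56 to 1.69, edgeR q = 0.770), its sign turning to −0.69 when libraries were scaled by spike-in counts. In the 1 spike-in set that held POMC libraries of both states, 3 of each, the mean was 5.96 in FD and 9.52 in fed libraries, a ratio of 0.627. By level, AGRP FD (47.9 ± 24.6 normalized CPM, SD, n = 6) stood first, followed by POMC FD (11.7 ± 8.74, n = 5), POMC fed (7.88 ± 3.94, n = 5) and AGRP fed (0.0653 ± 0.0906, n = 5). Neighbors in that order overlapped except for AGRP fed, which lay below all other libraries. Fed AGRP neurons were thus at −6.83 (standard error 0.84) and FD AGRP neurons at 2.04 (standard error 0.58) against POMC neurons of the same state on the log2 scale, so that the order of the cell types differed between fed and FD mice. Without AGRP fed replicate 2, which held 4 of the 6 counts, the fed value was −7.94. Subtracting the change in POMC neurons from that in AGRP neurons gave 8.86 log2 units (standard error 1.02), and 10.60 with spike-in scaling.

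*Lyve1*, a close relative of CD44 in its hyaluronan-binding domain, had the highest TPM of the 10 genes in FD AGRP neurons. Its normalized CPM in fed AGRP libraries was 1.33, 1.60, 0.122, 0.284 and 1.02. In FD AGRP libraries it ranged from 42.9 to 217 with a median of 115, and no library of either state fell in the range of the other. The fitted log2(fold-change) was 7.02 (standard error 1.07), and 6.05 with spike-in scaling. Within the 3 sets of equal spike-in treatment, FD over fed was 164 (1 library each), 93.5 (2 libraries each) and 159 (3 FD and 2 fed libraries).

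In POMC neurons *Lyve1* was low or at the floor. Fed POMC libraries held 0, 0.148, 4.04, 0.106 and 0.257 normalized CPM, and FD POMC libraries held 6.49, 0.0477, 1.44, 0.0981 and 0.145. In each state a single library carried most of the signal, and the fitted change of 0.84 (standard error 0.91, edgeR q = 0.791) turned to −0.95 (q = 0.804) without POMC FD replicate 1 and rose to 3.64 (q = 0.0964) without POMC fed replicate 3. AGRP FD against POMC FD libraries differed by 6.07 log2 units (standard error 1.02) with no overlap, and by 7.85 without POMC FD replicate 1, 7.75 with limma-voom and 7.68 with spike-in set as a block. The 3 other groups overlapped each other. Subtracting its POMC change from its AGRP change gave 6.19 log2 units (standard error 1.32), which became 3.39 without POMC fed replicate 3 and 7.97 without POMC FD replicate 1.

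Because LYVE1 marks other cell types, their markers were examined in the same libraries. The summed TPM (counts scaled by transcript length and library size) of 6 perivascular macrophage markers was 0 to 0.0590 in FD AGRP libraries, 0 to 2.53 in fed AGRP libraries, 0 to 0.0760 in fed POMC and 0 to 0.135 in FD POMC libraries. *Cd163*, *Pf4*, *F13a1*, *Folr2* and *Cbr2* had 0 counts in all FD AGRP libraries, where *Lyve1* was high, and *Cd163* and *Pf4* had 0 counts in all 21 libraries. Of 4 lymphatic endothelial markers, *Prox1* averaged 152 TPM in FD and 197 TPM in fed AGRP neurons and was also present in POMC neurons, whereas *Flt4* and *Ccl21a* averaged 0.002 and 0.0297 TPM in FD AGRP libraries. The microglial sum was 0.384 to 5.81 TPM in FD and 1.13 to 20.9 TPM in fed AGRP libraries, *Cx3cr1* being at 0 in the former and *C1qa* in all libraries. Of the same list *Csf1r* was higher in FD AGRP libraries, with a mean of 1.27 TPM against 0.466 TPM in fed ones. *Aif1* (0.54 against 2.60 TPM) and *P2ry12* (0.961 against 2.38 TPM) were lower. The part of these cells in the *Lyve1* values was not tested. The endothelial sum was 0.254 to 2.84 TPM in FD AGRP libraries and 0 to 2.94 TPM in fed AGRP libraries.

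**Figure D1:**
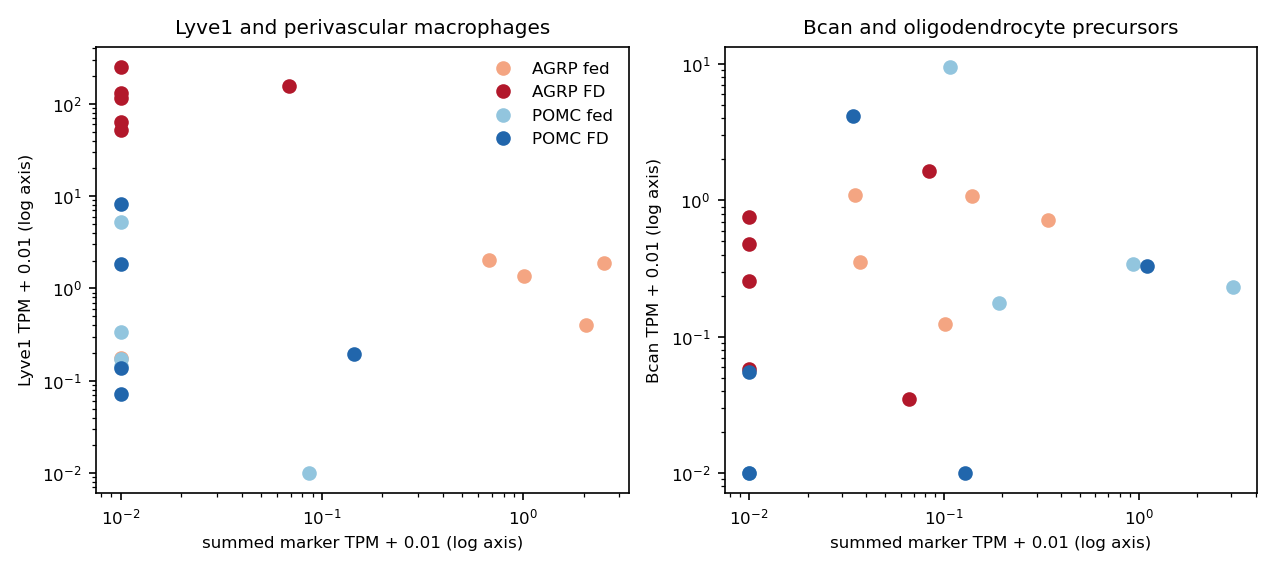
*Lyve1* (left) and *Bcan* (right) in TPM + 0.01 against the summed TPM + 0.01 of perivascular macrophage and oligodendrocyte precursor markers, each point a library, both axes logarithmic. The 6 FD AGRP libraries with 51.9 to 248 TPM of *Lyve1* had at most 0.0590 TPM of the macrophage markers, and the POMC libraries with the most *Bcan* did not have the most precursor marker TPM, while astrocyte markers, not plotted, were highest of the FD POMC libraries in the one with the most *Bcan* (13.2 TPM).

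*Cd44*, the major hyaluronan receptor of many cells, followed the opposite pattern. It was abundant in POMC neurons and scarce in AGRP neurons. Fed POMC libraries held 131, 169, 48.4, 104 and 87.4 normalized CPM and fed AGRP libraries 0.686, 5.23, 0.912, 0.806 and 0.321. The log2(fold-change) of AGRP against POMC was −6.09 in fed mice (standard error 0.69, q = 1.32e-07) and −7.64 in FD mice (standard error 0.73, q = 3.48e-09), and no AGRP library reached the lowest POMC library in either state. The gene entered these tests through the POMC libraries, where it was high. With no count filter the value in fed mice was −6.09 (q = 4.51e-11).

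In AGRP neurons *Cd44* was near the floor, and it passed the count filter through the POMC libraries. In the fit of all 4 groups FD and fed AGRP neurons differed by −3.33 on the log2 scale (standard error 0.71, q = 0.00212), while with the AGRP libraries alone it failed the filter and was not tested. Counts were 15, 95, 15, 17 and 6 in fed libraries and 0, 0, 0, 8, 2 and 8 in FD libraries. FD replicate 6 overlapped the fed range. The call was lost with limma-voom (log2(fold-change) −3.45, q = 0.156), and without AGRP fed replicate 2, the highest library, the change was −2.12 (q = 0.0391). In POMC neurons the same gene averaged 31.6 ± 14.5 normalized CPM in FD (SD, n = 5) and 108 ± 45.5 in fed mice (n = 5), FD libraries holding 11.2, 27.6, 40.5, 49.7 and 29.1. Groups met at a single point, FD replicate 4 being just above fed replicate 3. The log2(fold-change) was −1.77 (standard error 0.56, 95% interval −2.87 to −0.68) and did not pass the test across all genes (q = 0.147). It passed with limma-voom (q = 0.00486), with the POMC libraries alone (q = 0.0266) and with spike-in set as a block (q = 0.0329). In the 1 spike-in set that held POMC libraries of both states, 3 of each, FD over fed was 0.330 with no overlap. Its change in AGRP neurons minus that in POMC neurons was −1.55 (standard error 0.90, q = 0.350), so that the data do not separate them. The summed tanycyte markers were 70.5 to 108 TPM in fed and 21.4 to 72.1 TPM in FD POMC libraries. Within that list *Vim* averaged 75.9 TPM in fed and 35.4 TPM in FD POMC libraries, and *Rax* was also lower in FD ones. *Col25a1* was higher in FD POMC libraries (15.29 against 13.04 TPM), as were *Crym* and *Gpr50*. The part of these markers in the *Cd44* values was not tested.

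**Figure D2:**
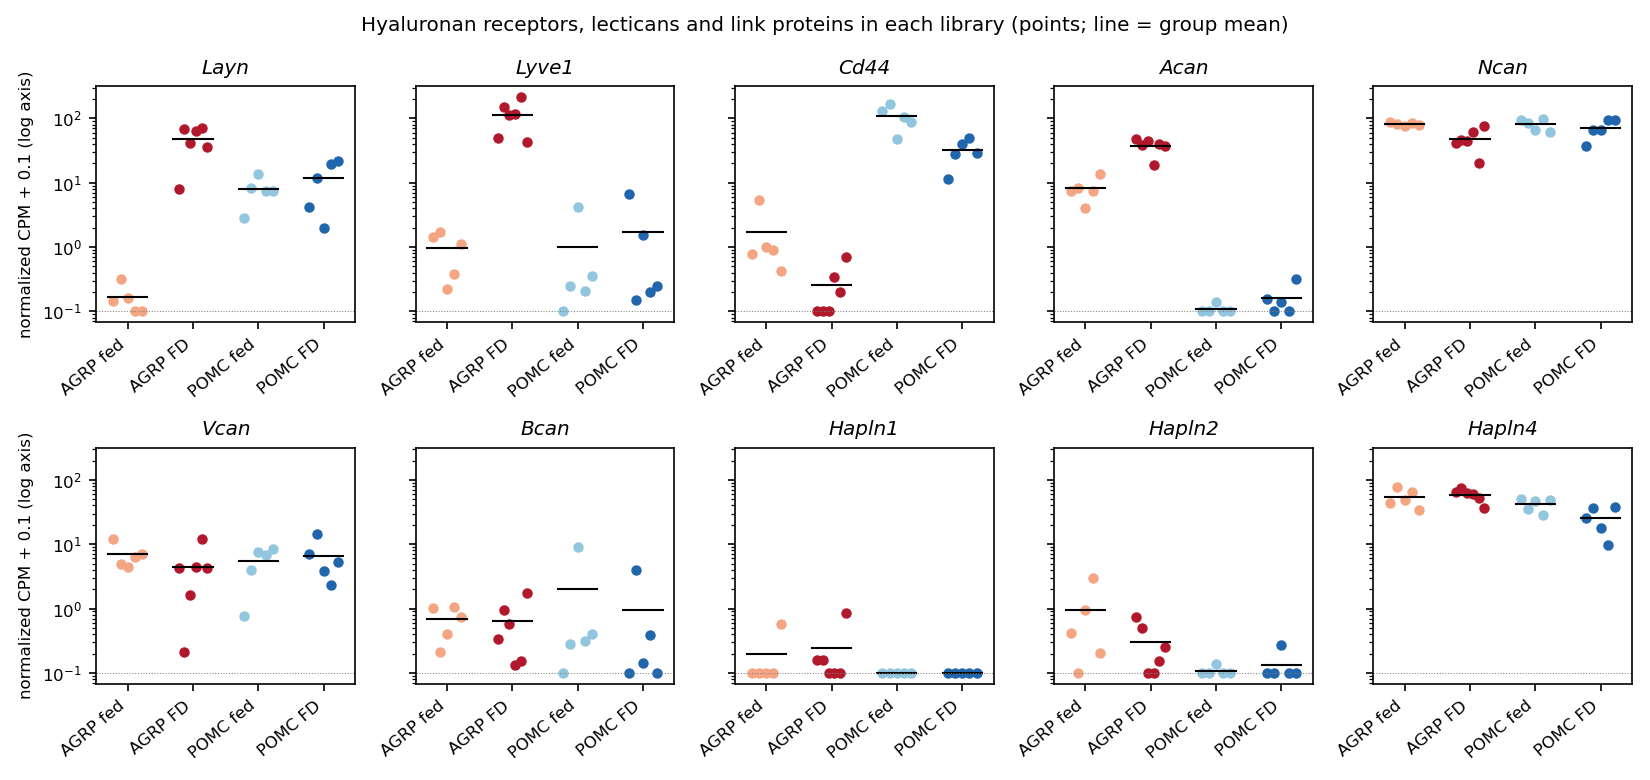
Normalized CPM + 0.1 on a log axis for the 10 genes in every library (points) with the group mean (line), the dotted line marking 0 counts. *Layn* and *Lyve1* separate FD from fed AGRP neurons, *Acan* is seen in AGRP libraries at 3.89 to 47.0 normalized CPM, *Cd44* is highest in fed POMC libraries, and *Ncan* and *Hapln4* are present in all 21.

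Among the lecticans, *Acan* was found in AGRP neurons and was at the floor in POMC neurons. Fed AGRP libraries held 7.27, 8.14, 3.89, 7.30 and 13.7 normalized CPM, whereas the 5 fed POMC libraries held 1 count in all, a ratio of 884 (95% exact counting interval 158 to 34952). In FD mice the 4120 counts of AGRP libraries stood against 5 counts of POMC libraries, a ratio of 614 (263 to 1891). Both POMC groups were at or under the floor, and no fold between them is given.

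Food deprivation raised *Acan* in AGRP neurons. The FD libraries held 18.9 to 47.0 normalized CPM with a median of 38.9, and every one lay above the highest fed library. The mean rose from 8.06 ± 3.55 (SD, n = 5) to 37.6 ± 9.96 normalized CPM (n = 6), which is 4.66-fold, or 2.22 on the log2 scale (standard error 0.47, q = 0.00201). The FD to fed ratio was 5.42, 4.65 and 4.13 in the 3 spike-in sets. With libraries scaled by spike-in counts the change was 1.07 and its q-value 0.607. Under that scaling 66 of all 16513 tested genes were called in this comparison, against 1700 in the main fit. The scaling used spike-in counts per labelled amount and took no account of the number of sorted cells.

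*Ncan*, the gene of neurocan and the most abundant lectican in all 4 groups by TPM, was held at a similar level in both cell types of fed mice, with 81.7 ± 4.71 normalized CPM in AGRP (SD, n = 5) and 81.3 ± 16.3 in POMC neurons (n = 5). In fed AGRP libraries it was 87.7, 83.0, 76.0, 83.9 and 77.9. FD AGRP libraries ran from 19.9 to 75.8 with a median of 44.7 and did not overlap the fed ones, although the highest FD library lay just under the lowest fed library. The log2(fold-change) of −0.77 (standard error 0.26, 95% interval −1.27 to −0.27) missed the threshold (q = 0.0519), and passed it with limma-voom (q = 0.0208), DESeq2 (q = 0.0214), RLE normalization (q = 0.0417) and spike-in set as a block (q = 0.0112). Within the spike-in sets FD over fed was 0.227, 0.866 and 0.537. In POMC neurons FD libraries averaged 71.7 ± 23.9 normalized CPM (n = 5), and differed from fed libraries by −0.18 on the log2 scale (standard error 0.27, q = 0.864). The cell types in FD mice differed by −0.58 (standard error 0.26, q = 0.119), and passed the test with spike-in set as a block (−0.72, q = 0.0436).

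*Vcan*, the gene of versican, was low and variable. Its group means were 6.83 ± 3.05 normalized CPM in fed AGRP, 4.35 ± 4.03 in FD AGRP, 5.37 ± 3.13 in fed POMC and 6.45 ± 4.66 in FD POMC libraries, with overlap in every comparison and q-values from 0.658 to 0.941 in the 4 comparisons of groups. *Bcan*, the gene of brevican, was lower still. Its level in fed AGRP libraries was 0.584 ± 0.370 normalized CPM (SD, n = 5) and in FD AGRP libraries 0.549 ± 0.617 (n = 6). Of the POMC libraries, fed replicate 3 held 8.91 and FD replicate 2 held 3.86 normalized CPM, and all others were at or under 0.308. The summed oligodendrocyte precursor markers were 0.0970 and 0.0240 TPM in these 2 libraries, against up to 3.04 TPM in other POMC libraries. The summed astrocyte markers, brevican being an astrocyte product as well, were 13.2 TPM in FD replicate 2, the highest of its group, against 3.15 to 8.27 TPM in the other FD libraries. In fed replicate 3 they were 11.1 TPM, against 2.95, 3.44, 13.1 and 13.6 TPM in the other fed libraries. Their part in the *Bcan* values was not tested. No comparison of *Bcan* passed the test, and its direction changed without single libraries in all 5 comparisons.

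Of the link protein genes *Hapln4*, known from nets around synaptic terminals, was abundant in all groups. Its normalized CPM was 43.6, 76.4, 49.5, 63.8 and 33.9 in fed AGRP libraries and 36.4 to 75.5 with a median of 61.4 in FD AGRP libraries, with a log2(fold-change) of 0.13 (standard error 0.29, 95% interval −0.44 to 0.70, q = 0.851). Fed POMC libraries held 50.2, 35.6, 46.8, 28.2 and 48.7, and FD POMC libraries 25.8, 36.6, 17.5, 9.62 and 37.7, which differ by −0.72 on the log2 scale (standard error 0.31, q = 0.315). In FD mice *Hapln4* was higher in AGRP than in POMC neurons, by 1.20 on the log2 scale (standard error 0.30, q = 0.00412), although the groups overlapped. In fed mice the difference was 0.35 (standard error 0.30, q = 0.606). The difference between these contrasts, 0.85 (standard error 0.42, q = 0.259), did not pass the test.

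*Hapln1* and *Hapln2* did not pass the count filter and were not tested. *Hapln1*, which stabilizes aggrecan in cartilage, had 9 counts in fed AGRP replicate 5 and 10 counts in FD AGRP replicate 6, and 0 counts in all POMC libraries, which allows at most 3 counts a library. *Hapln2*, a link protein of myelinated axons, averaged 0.843 ± 1.22 normalized CPM in fed AGRP libraries (SD, n = 5), most of it in replicate 4 (2.94), and 0.206 ± 0.258 in FD AGRP libraries (n = 6). *Hapln3* was seen in fed AGRP replicate 5, with 27 counts, and had 0 counts elsewhere, although its neighbor *Acan* was measured in every AGRP library. The other tightly spaced pair, *Ncan* and *Hapln4*, was abundant in all groups.

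Of the 10 genes 8 passed the count filter, among 16513 genes tested. Of the 6 members tested in AGRP FD against fed mice, *Acan* was higher and *Cd44* lower, against 5.87% of all tested genes higher and 4.43% lower. With the AGRP libraries alone the tally was 1 higher and 0 lower, *Cd44* not being tested. Of the 7 tested in POMC FD against fed mice none was called by edgeR, against 0.182% of genes higher and 0.194% lower, and *Cd44* and *Hapln4* had an unadjusted p below the level of 0.05 (0.00348 and 0.0258). limma-voom called 1 of these 7, *Cd44*, and DESeq2 called 0. Of the 5 tested between cell types, *Cd44* was called lower in fed AGRP neurons (background 3.33% higher and 4.24% lower), and in FD mice *Hapln4* was higher and *Cd44* lower (background 9.28% and 9.27%). In the test of unequal fasting changes between cell types none of the 5 was called by edgeR, limma-voom or DESeq2, with 0 at an unadjusted p below 0.05 by edgeR, against 4.08% of genes higher and 2.63% lower. The comparisons share libraries and are not independent of each other.

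**Figure D3:**
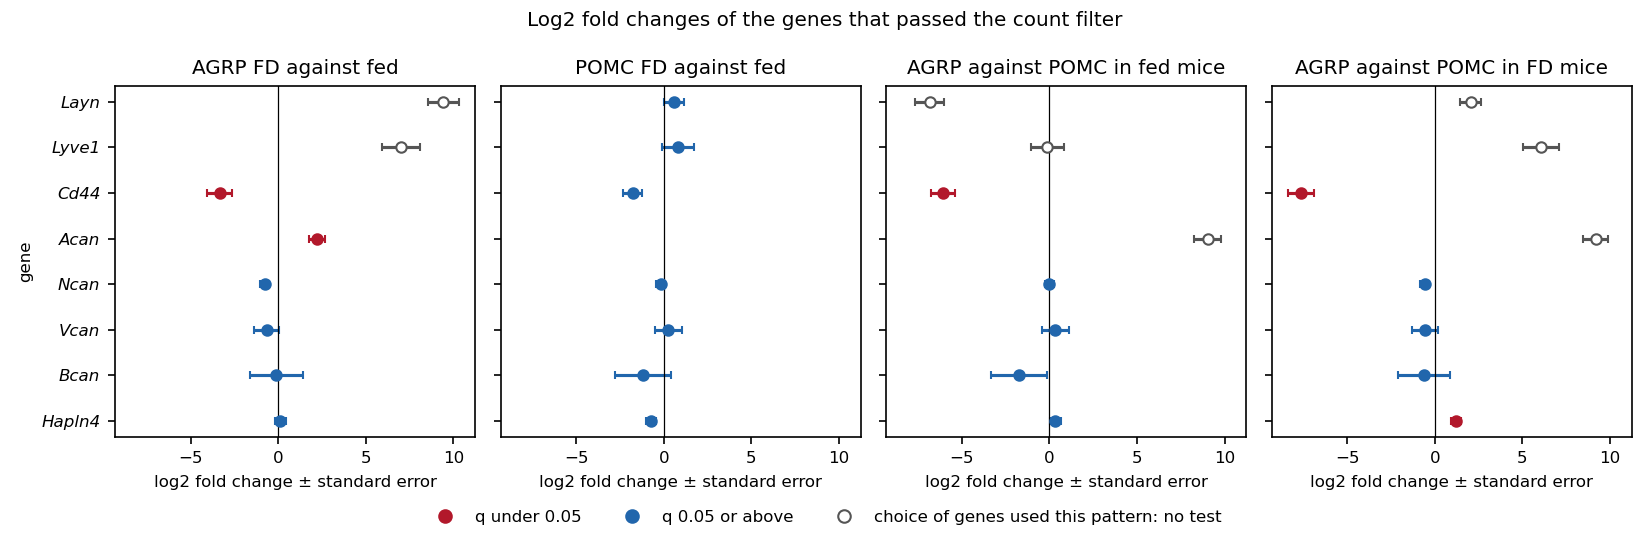
Log2(fold-change) ± approximate standard error derived from the edgeR fit for the 8 genes that passed the count filter, in 4 comparisons. Red points have q under 0.05, blue points do not, and open points are patterns on which the genes were picked. *Cd44* is below 0 in all 4 panels, and *Acan* is left out of the POMC panel because both groups were at the floor.

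Levels of different genes can be compared per transcript length, as TPM. Fed AGRP neurons were led by *Hapln4* (52.2 ± 14.8 TPM, SD, n = 5) and *Ncan* (39.9 ± 3.22), with *Acan* next (3.83 ± 1.66). FD AGRP neurons were led by *Lyve1* (127 ± 71.5 TPM, n = 6) and *Layn* (76.8 ± 37.0), followed by *Hapln4* (48.3 ± 10.7), *Ncan* (19.7 ± 8.07) and *Acan* (15.4 ± 5.02). In fed POMC neurons the order was *Cd44* (57.6 ± 20.3 TPM, n = 5), *Hapln4* (36.2), *Ncan* (34.7 ± 6.04) and *Layn* (14.0 ± 7.71). In FD POMC neurons *Ncan* (33.5 ± 11.3 TPM, n = 5), *Hapln4* (23.8 ± 11.4), *Layn* (22.1 ± 16.5) and *Cd44* (18.8 ± 8.74) came first and overlapped each other. The receptor with the highest TPM thus differed between groups: it was *Cd44* in fed POMC neurons, *Layn* in FD POMC neurons and *Lyve1* in AGRP neurons of both states, where in fed mice it overlapped *Cd44* (0.950 TPM).

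**Figure D4:**
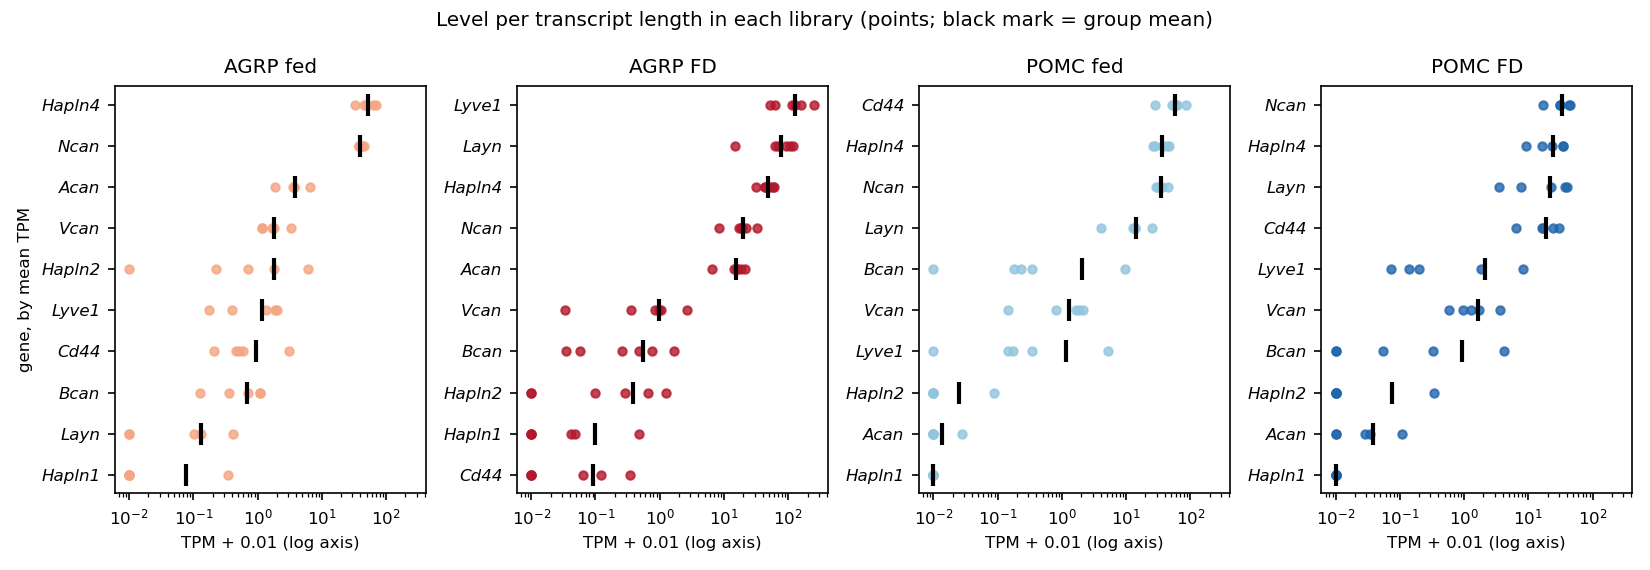
TPM + 0.01 on a log axis for the 10 genes in each group, ordered by group mean (black mark), each point a library. The top gene is *Hapln4* in fed AGRP (52.2 TPM), *Lyve1* in FD AGRP (127 TPM), *Cd44* in fed POMC (57.6 TPM) and *Ncan* in FD POMC neurons (33.5 TPM).

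Beyond these genes, 6 lists of related genes held 90 genes, of which 67 passed the filter. In AGRP neurons 7 were higher and 2 lower with food deprivation, with a median log2(fold-change) of −0.07 against −0.02 over all genes, of which 5.87% were higher and 4.43% lower. The lists were drawn up with earlier results of these data known, so the counts below are descriptions and not independent evidence. In POMC neurons none of the 67 was called by edgeR, against 0.182% of all tested genes higher and 0.194% lower. Most calls fell in the list of partners of lecticans in the perineuronal net, with 4 higher and 1 lower of 9 tested (background 5.87% and 4.43%). *Sema3a*, a secreted guidance protein held in nets by chondroitin sulfate, rose from 30.1 ± 6.02 to 206 ± 89.4 normalized CPM (log2(fold-change) 2.78, standard error 0.40, q = 2.27e-05). *Nptx2*, a pentraxin that gathers glutamate receptors at synapses, rose from 10.4 ± 11.7 to 39.8 ± 20.7 (1.94, standard error 0.50, q = 0.00997). *Tnr*, which codes for tenascin-R, rose by 0.90 (standard error 0.18, q = 0.00125) and *Ptprz1*, a receptor tyrosine phosphatase, by 0.97 (standard error 0.22, q = 0.00397). *Cspg5*, a transmembrane proteoglycan, fell by 0.64 (standard error 0.16, q = 0.00628). All 4 that rose also had q under 0.05 for the difference between cell types (background 4.08% higher), *Sema3a* with 2.52 log2 units (standard error 0.55, q = 0.00422). That difference holds the AGRP comparison in which they were called, so it is a description and not a further test.

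Of 18 tested genes for the synthesis of chondroitin sulfate chains, the sugar chains that lecticans carry, 2 were higher in FD AGRP neurons (background 5.87%). They were *Dse*, a dermatan sulfate epimerase (log2(fold-change) 2.50, standard error 0.73, q = 0.0246), and *Chpf*, a chondroitin polymerizing factor (1.18, standard error 0.38, q = 0.0437). Between the cell types of fed mice AGRP neurons had higher levels of 2 of 18 and POMC neurons of 4 (background 3.33% and 4.24%). *Csgalnact1*, which starts the chain, stood at 113 ± 17.0 normalized CPM in AGRP and 7.26 ± 4.82 in POMC neurons (log2(fold-change) 3.96, standard error 0.35, q = 1.48e-09), and *Xylt1*, which attaches the first sugar, at 29.7 ± 11.5 and 4.26 ± 3.08 (2.79, q = 0.000350). *Ust*, a sulfotransferase, stood at 1.72 ± 2.65 in AGRP and 31.6 ± 21.1 in POMC neurons (−4.19, standard error 0.75, q = 0.000262), and *Chsy3*, a chondroitin synthase, at 0.491 ± 0.730 and 10.3 ± 3.82 (−4.36, q = 0.00360). *Ust* and *Chsy3* were also low in FD AGRP libraries (0.869 and 1.31), so these calls rest on the POMC libraries, where both genes were high.

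None of 12 tested genes for synthesis and breakdown of hyaluronan was called with food deprivation in either cell type. The background was 5.87% higher and 4.43% lower in AGRP and 0.182% and 0.194% in POMC neurons. *Has3*, a hyaluronan synthase, was higher in AGRP than in POMC neurons of FD mice (log2(fold-change) 2.60, standard error 0.82, q = 0.0244). It was the 1 call among these 12 genes there, against a background of 9.28% higher and 9.27% lower. Of 8 other hyaluronan-binding genes tested, *Susd5* was called between cell types of fed mice (background 3.33% higher and 4.24% lower). It stood at 11.2 ± 9.17 normalized CPM in fed AGRP and 0.0876 ± 0.169 in fed POMC libraries (7.01, standard error 1.22, q = 0.000160). Because *Susd5* passed the count filter through the AGRP libraries, where it was high, its call is a description. None of 12 lectican proteases and inhibitors was called with food deprivation, against the same backgrounds as for hyaluronan synthesis and breakdown. Between cell types of fed mice 1 of these 12 was called (background 3.33% higher and 4.24% lower). It was *Timp3*, a protease inhibitor, at 83.8 normalized CPM in fed AGRP and 25.8 in fed POMC neurons (q = 0.00314).

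Among 8 genes of cytoplasmic partners of CD44 and layilin, *Ezr* and *Tln2* were called in AGRP neurons with food deprivation. That is 1 higher and 1 lower (background 5.87% and 4.43%). *Ezr*, the gene of ezrin, which links CD44 to actin, rose from 71.5 to 162 normalized CPM (log2(fold-change) 1.18, standard error 0.27, q = 0.00356). *Tln2*, a talin gene, the talins being cytoplasmic ligands of layilin, fell from 29.2 ± 8.81 to 10.9 ± 4.70 (−1.43, standard error 0.28, q = 0.000957). *Msn*, the gene of moesin, a relative of ezrin, was higher in POMC neurons of fed mice, at 163 ± 12.3 against 20.4 ± 7.75 normalized CPM in AGRP neurons (−2.99, standard error 0.43, q = 8.57e-06). In that comparison 0 of the 8 genes were higher and 2 lower in AGRP neurons (background 3.33% and 4.24%).

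**Figure D5:**
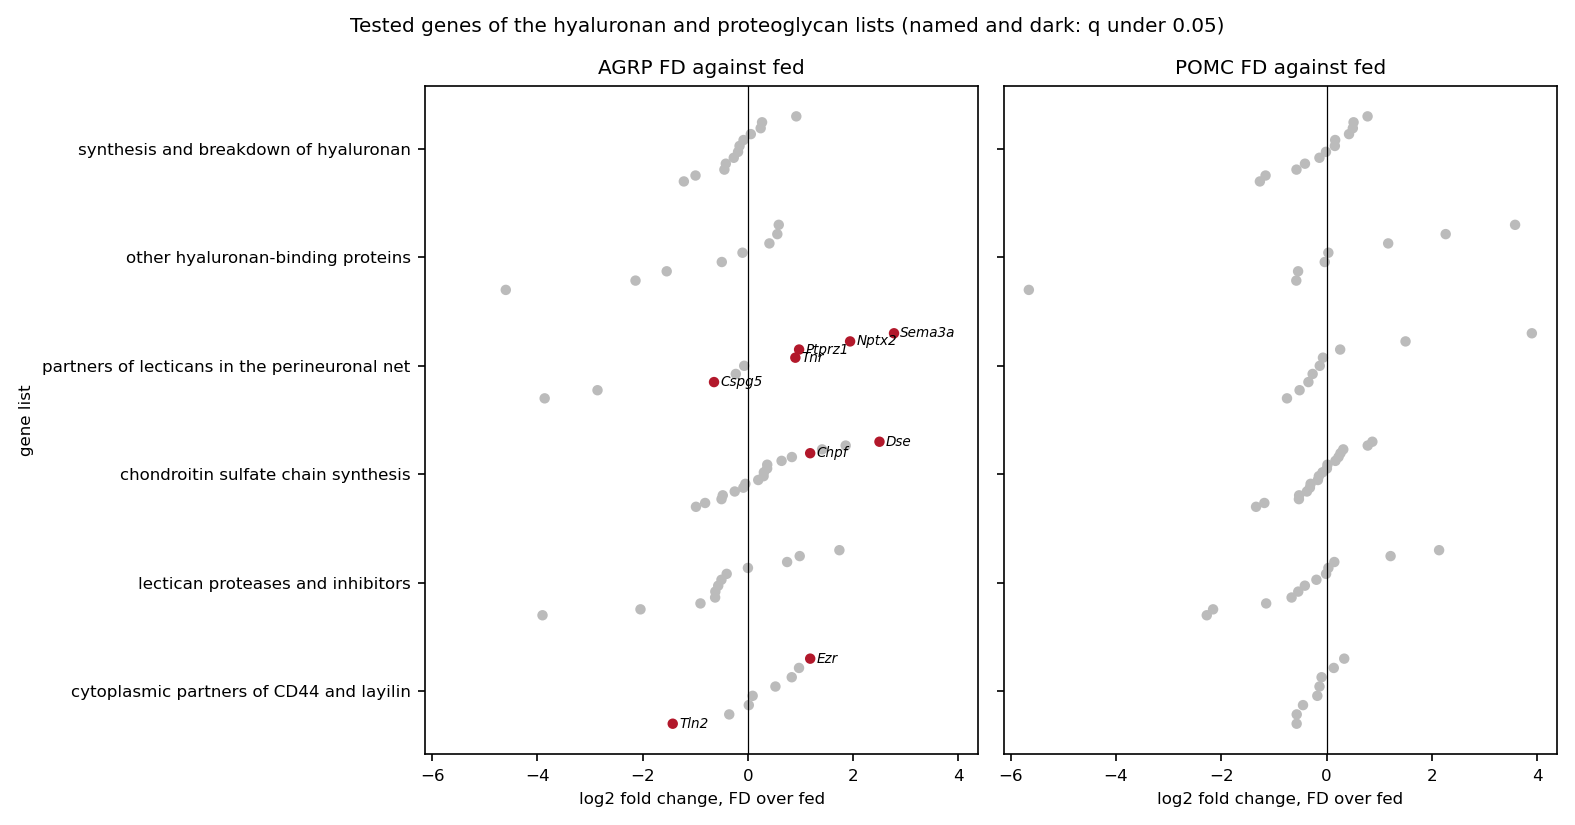
Log2(fold-change) of FD over fed mice for the 67 tested genes of 6 lists in AGRP (left) and POMC neurons (right), each point a gene, with q under 0.05 marked in red and named. The 9 named genes are all in the AGRP panel, 7 of them above 0.

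The genes whose profiles were most like those of *Layn*, *Lyve1* and *Acan* over the 21 libraries were found by the root mean square difference of centered log2(normalized CPM + 0.5). For *Layn* these were *Cftr* (1.28 log2 units), *Ntng1* (1.29), *Greb1* (1.30), *Mt2* (1.30) and *Vgf* (1.36), when the profile itself had an SD of 2.47. For *Lyve1*, with an SD of 3.18, *Slco1a1* (1.26) came first, then *Myof* (1.56), *Svs2* (1.57), *1700024P16Rik* (1.57) and *Nts* (1.60). *Acan* had closer matches against its SD of 2.76, with *Il2rg* (0.552), *Htr1b* (0.740), *Acvr1c* (0.883), *Gm8773* (0.893) and *Col6a1* (0.893). These lists depend on the value added before the logarithm. With 0.1 in place of 0.5, *Mt1* and *Bmp2* replaced *Ntng1* and *Vgf* for *Layn*. For *Lyve1*, *Gprc5a* and *B230364G03Rik* replaced *1700024P16Rik* and *Nts*. For *Acan*, *Vipr1*, *Agrp* and *Ghsr* replaced *Acvr1c*, *Gm8773* and *Col6a1*. *Il2rg* stood at 8.90 normalized CPM in fed AGRP, 28.6 in FD AGRP, 0.0205 in fed POMC and 0.0191 in FD POMC libraries. Of the nearest tested neighbors on the chromosome, *Rnf141* and *Ampd3* beside *Lyve1* changed by 0.59 (q = 0.282) and 0.61 (q = 0.253) in FD AGRP neurons, *4833427G06Rik* beside *Layn* by 2.36 (q = 0.396) at 0.255 and 1.34 normalized CPM, and *Gm26633*, 160 bases from *Acan*, by 0.25 (q = 0.952). *Gm26633* averaged 1.63 normalized CPM in fed AGRP and 0.0103 in fed POMC libraries. *Mfge8*, farther from *Acan*, changed by 0.85 (q = 0.821), and *Isg20*, 133121 bases from *Acan*, rose by 4.37 on the log2 scale (q = 0.0351) from 0.573 normalized CPM. *Isg20* averaged 0.7025 normalized CPM in fed POMC and 0.0676 in FD POMC libraries. Because its mean was high in FD AGRP libraries alone, the group in which it was called, its call is a description.

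Identity and purity of the libraries bear on all of these values. *Agrp* and *Pomc* marked the labelled cell type, with log2(fold-change) of 7.69 and −8.74 for AGRP against POMC in fed mice. Astrocyte markers summed to 5.37 to 22.3 TPM in fed and 3.28 to 18.4 TPM in FD AGRP libraries, oligodendrocyte markers to 33.1 to 57.9 and 27.8 to 40.6 TPM. For tanycytes the ranges were 31.5 to 73.6 and 44.5 to 97.2 TPM, for fibroblasts and pericytes 2.06 to 9.15 and 2.71 to 7.19 TPM, for oligodendrocyte precursors 0.0250 to 0.332 and 0 to 0.0740 TPM, and for other arcuate neurons 606 to 2313 and 453 to 2411 TPM. In AGRP libraries *Sst* made up most of the sum for other arcuate neurons (mean 1404 TPM fed, 1282 TPM FD). The next highest mean in that list was *Gal* in FD libraries (25.9 TPM). Most of the oligodendrocyte sum was *Mbp* (33.9 and 26.6 TPM), and most of the tanycyte sum was *Vim* (48.9 and 62.1 TPM). Among all markers of non-neuronal cells *Aldh1l1*, 1 of 6 astrocyte markers tested, was called in AGRP FD against fed mice (background 5.87% higher). It stood at 2.26 ± 2.34 against 0.0312 ± 0.0286 normalized CPM (log2(fold-change) 5.91, q = 0.0284). Because it passed the count filter through the FD AGRP libraries, its call is a description. *Slc1a3* was also higher on average in FD AGRP libraries, whereas *Gfap*, *Aqp4*, *Gja1* and *S100b* were lower. The part of *Aldh1l1* in the changes above was not tested. In fed and FD POMC libraries the sums were 2.95 to 13.6 and 3.15 to 13.2 TPM for astrocytes, 16.4 to 32.3 and 23.4 to 53.9 TPM for oligodendrocytes, 0.180 to 12.01 and 1.47 to 7.68 TPM for microglia, 0.920 to 2.91 and 0.340 to 2.23 TPM for endothelial cells, 1.40 to 9.89 and 0.789 to 9.50 TPM for fibroblasts and pericytes, and 47.6 to 231 and 1.88 to 91.9 TPM for other arcuate neurons.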

How the data were processed

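RNA-Seq was performed on 21 libraries, each from the sorted neurons of a single mouse. The authors trimmed reads with cutadapt 1.7.1, removed abundant sequences with Bowtie2 2.1.0, mapped to mm10 with STAR 2.4.0i and assigned uniquely mapped reads to genes without regard to strand with HTSeq 0.6.1p1, and deposited these counts per gene. They also deposited TPM, made from the counts by exon length and library size. From the counts, genes with CPM over 1 in at least 3 libraries were kept, scaled by TMM and tested with edgeR 4.0.16 (quasi-likelihood, R 4.3.3) in a model of the 4 groups. The q-values are Benjamini-Hochberg adjusted over 16513 genes, and a gene is called at q under 0.05. Standard errors were obtained from the log2(fold-change) and its F statistic, and their 95% intervals by a normal approximation. Such an interval can therefore disagree with the p-value of the test near the threshold. Reads assigned to no gene (24.2% to 52.1%) and 92 spike-in entries were left out of library sizes. TPM was used for levels between genes and for marker sums, with no test. Alternatives were limma-voom (limma 3.58.1), DESeq2 1.42.0, RLE and spike-in scaling, no count filter, the compared groups alone, blocks for replicate number and spike-in set, sorted cells as a covariate, stricter criteria, each library left out and, chosen after seeing the data, age as a covariate. The edgeR script was tested on simulated data. The members and lists were chosen with earlier results of these data known. Named were all members and *Hapln3*, the called genes of largest and smallest log2(fold-change) in each list (at most 2 each way), the 5 genes most like *Layn*, *Lyve1* and *Acan*, and their neighbors. *Ptprz1* was added after its values were seen. Exact intervals of count ratios are at the 95% level.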

Additional observations from a re-analysis of the deposited data

Results flagged for a closer look

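Dixon's test marked 12 of 35 groups of member values in which a single library stood apart. Its limits assume a normal spread, whereas these values are skewed and end at 0, so that no rate by chance is given. A group with a single library above 0 is always marked, as for *Hapln1* in AGRP fed and *Hapln2* in POMC FD libraries. In AGRP fed libraries they were *Layn* in replicate 2 (0.220 normalized CPM, nearest library 0.0608), *Cd44* in replicate 2 (5.23, nearest 0.912), *Hapln1* in replicate 5 (0.482, nearest 0) and *Hapln2* in replicate 4 (2.94, nearest 0.852). In AGRP FD libraries they were *Acan* in replicate 4, the lowest of its group (18.9, nearest 37.1), *Vcan* in replicate 5 (11.8, nearest 4.37) and *Hapln1* in replicate 6 (0.744, nearest 0.0576). POMC fed replicate 3 stood apart for both *Lyve1* (4.04, nearest 0.257) and *Bcan* (8.91, nearest 0.308). Among POMC FD libraries the marked values were *Lyve1* in replicate 1 (6.49, nearest 1.44), *Bcan* in replicate 2 (3.86, nearest 0.294) and *Hapln2* in replicate 3 (0.169, nearest 0).

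The effect of food deprivation on *Layn* and *Lyve1* differed between AGRP and POMC neurons, with AGRP changes exceeding POMC changes by 8.86 and 6.19 log2 units. Both genes were chosen for their AGRP response, so these are descriptions with no test.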

How the results depend on the processing

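The calls of *Cd44* between cell types held under every alternative run. Of AGRP FD against fed mice the count of 2 called members fell to 1 with spike-in scaling (*Cd44* remained), with the compared groups alone (*Cd44* then failed the count filter) and with the stricter criteria of the study's methods. In POMC neurons the count of 0 rose to 1 (*Cd44*) with limma-voom, the compared groups alone and spike-in set as a block. In AGRP against POMC FD libraries the count of 2 fell to 1 with spike-in scaling, *Hapln4* then having 2.43 (q = 0.108). Leaving out each library gave 2 to 3, 0 to 0, 1 to 1, 2 to 3 and 0 to 0 called members in the 5 comparisons. The third call was *Ncan*, in AGRP FD against fed mice without AGRP FD replicate 4, AGRP FD replicate 6 or POMC FD replicate 1 (q = 0.0439, 0.0165 and 0.033), and in AGRP against POMC FD mice without AGRP FD replicate 6 or POMC FD replicate 1 (q = 0.039 and 0.038).

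Same-numbered libraries did not deviate together (r from −0.113 to 0.0729 over 30 pairs). With the replicate number as a block *Ncan* had −0.99 (q = 0.0151) in AGRP FD against fed mice and −0.79 (q = 0.0379) in AGRP against POMC FD mice, giving 3 called members in each, and no other call changed. With spike-in set as a block *Ncan* also passed in both (−0.86, q = 0.0112, and −0.72, q = 0.0436), giving 3 called members in each.

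Changes of direction concerned values that had not passed the test. Spike-in scaling moved the median of all genes by −0.93 (AGRP FD against fed), −1.28 (POMC), 0.82 (cell types, fed), 1.17 (cell types, FD) and 0.36 (interaction). With it *Hapln4* turned to −0.45 in AGRP FD against fed, *Layn*, *Lyve1* and *Vcan* to −0.69, −0.020 and −0.42 in POMC FD against fed, *Bcan* to 0.35 between cell types of fed mice, *Ncan* and *Vcan* to 0.43 and 0.41 between those of FD mice, and *Bcan* to −0.74 in the interaction. limma-voom turned *Layn* in POMC neurons to −0.094 and *Bcan* between cell types to 0.51 (fed) and 0.83 (FD). The replicate block turned *Bcan* to 0.49 (fed) and −1.09 (interaction). The spike-in set block turned *Bcan* to 0.35 in AGRP FD against fed, *Layn* in POMC neurons to −0.18, *Ncan* and *Bcan* to −0.24 and 0.31 between cell types of fed mice, and *Vcan* and *Bcan* to 0.013 and 1.52 between those of FD mice. Sorted cells as a covariate turned *Bcan* to 0.012 and *Hapln4* to −0.0095 in AGRP FD against fed, and *Ncan* and *Vcan* to −0.069 and −0.23 between cell types of fed mice. Without single libraries *Bcan* ran from −0.82 to 0.15 (AGRP FD against fed), −4.54 to 2.22 (POMC), −2.03 to 1.69 (fed), −1.34 to 2.73 (FD) and −2.32 to 4.44 (interaction), *Lyve1* from −0.95 to 3.64 and *Vcan* from −0.25 to 0.48 in POMC neurons, and *Ncan* from −0.076 to 0.083 between cell types of fed mice. The cause was not tested. Depth limits what can be said of *Hapln1*, *Hapln2*, *Bcan* and of *Acan* in POMC neurons.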
